A study of Rattus norvegicus with 8 samples.

Results

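A small set of basophil or mast-like barcodes was described in single-cell RNA libraries of rat liver immune cells. A barcode marks the RNA of 1 droplet, and each unique molecular identifier (UMI) counts 1 captured transcript. Members were chosen by their UMIs of 3 genes, Hdc, Dnase2b and Fcer1a, with at least 3 of these together in a barcode of at least 500 UMIs and under 20% of UMIs from mitochondrial genes. The rule found 59 members among 32170 barcodes that passed the same limits on UMIs and mitochondrial share, with 58 of 17058 in fresh and 1 of 15112 in preserved libraries.

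The cells came from male Han Wistar rats. The 2 NC animals were fed a choline-sufficient diet (CSAA), and the 2 PC animals a choline-deficient one (CDAA). Each animal gave 1 fresh library and 1 library of cells held for 3 weeks in DMSO and serum, so the comparison asks whether frozen storage keeps these cells. All libraries shared the liver dissociation, red cell lysis and density gradient, which collects light mononuclear cells and leaves out denser ones, and neither an age nor a sort is given in the sources used here. The libraries held 18338700 to 26471843 UMIs each, 15803115 to 23543089 of them in passing barcodes. Where 4 values are listed, they stand in the order NC1, NC2, PC1, PC2.

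Basophils and mast cells carry the high-affinity receptor for immunoglobulin E and release histamine and lipid mediators when it is crosslinked. Basophils are blood granulocytes that depend on interleukin 3, make interleukin 4 and, in rodents, hold proteases of the Mcpt8 family. Mast cells reside in tissues, depend on the receptor Kit and hold tryptases, chymases and carboxypeptidase A3. Hdc (ENSRNOG00000010262) encodes histidine decarboxylase, which makes histamine, Dnase2b an acid endonuclease, and Fcer1a (ENSRNOG00000009177) the receptor chain that binds immunoglobulin E.

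The leading genes outside the rule included a pair of Mcpt8 family proteases, Mcpt8l2 (ENSRNOG00000049096) and Mcpt8l3 (ENSRNOG00000049991). Their promoters are shown because these share most of their bases. The transcripts were not compared, and how reads were assigned between the copies was not tested, so the separate counts are given as uncertain. RefSeq entries matched by symbol place both on chromosome 15 of GRCr8, a later build than the one behind the files. Each sequence runs 5′ to 3′ on the + strand from 250 bases before to 50 bases after the gene start, at chr15:33718231-33718530 for Mcpt8l2 and chr15:33673014-33673313 for Mcpt8l3. Of 232 aligned bases 224 were identical (96.6%), and capitals mark the 8 that differ.
Mcpt8l2: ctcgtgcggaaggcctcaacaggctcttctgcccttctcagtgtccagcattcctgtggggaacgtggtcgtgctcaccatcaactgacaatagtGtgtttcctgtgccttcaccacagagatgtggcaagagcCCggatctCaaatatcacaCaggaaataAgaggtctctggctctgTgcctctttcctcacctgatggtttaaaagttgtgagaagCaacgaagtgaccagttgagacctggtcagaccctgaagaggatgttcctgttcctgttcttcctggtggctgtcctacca
Mcpt8l3: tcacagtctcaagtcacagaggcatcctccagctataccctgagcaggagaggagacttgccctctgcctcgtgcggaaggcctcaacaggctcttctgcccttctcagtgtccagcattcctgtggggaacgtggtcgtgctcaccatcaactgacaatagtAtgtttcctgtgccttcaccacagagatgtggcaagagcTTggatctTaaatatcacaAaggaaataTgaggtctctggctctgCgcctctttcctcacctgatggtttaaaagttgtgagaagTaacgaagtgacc

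Members were found in every fresh library and in 1 of 4 preserved libraries. In fresh NC1, 31 of 4617 passing barcodes were members (0.671%, exact 95% interval 0.457 to 0.952%). Fresh NC2 had 16 of 4129 (0.388%, 0.222 to 0.629%), fresh PC1 had 3 of 4122 (0.0728%, 0.0150 to 0.213%) and fresh PC2 had 8 of 4190 (0.191%, 0.0825 to 0.376%). Preserved PC2 had 1 of 4224 (0.0237%, 0.000599 to 0.132%). Preserved NC1 had 0 of 3555, which allows a share of up to 0.0844%, preserved NC2 0 of 3431 (up to 0.0874%) and preserved PC1 0 of 3902 (up to 0.0769%). These intervals and limits cover counting error only.

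The fresh share was above the preserved share in 4 of 4 animals. The mean difference was 0.325 ± 0.266 percentage points (SD, n = 4), and it moved with the rule. With 2 rule UMIs the NC1 fresh share was 1.41%. Without members holding 3 UMIs of another cell class list it was 0.130%, and the other animals had 0 fresh members. In PC1 the fresh share of 0.0728% lay below the limit of 0.0769% that 0 preserved members allow, so a difference was not detectable in that animal at this depth. No test was made, because the fall of the 3 rule genes after storage was known when the rule was set. Fresh and preserved libraries were also processed on different days, so storage and day cannot be told apart.

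Both NC animals had a higher fresh share than both PC animals. The NC minus PC difference was 0.398 percentage points, and no test was made, since an exact permutation test of 2 animals against 2 cannot pass a threshold of 0.05. The exact intervals of NC2 and PC2 overlapped. Without members holding 3 UMIs of another cell class list, NC1 alone kept fresh members, and NC2, PC1 and PC2 had 0.

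**Figure D1:**
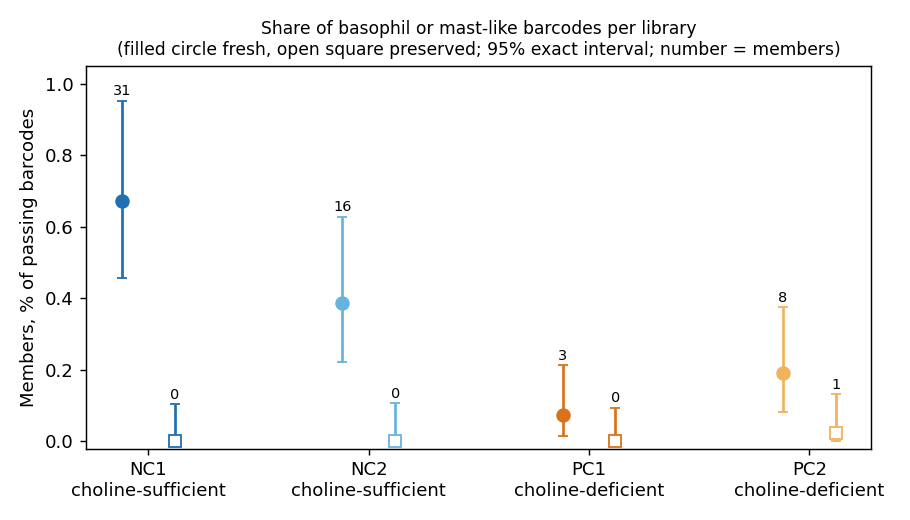
Members as a percentage of passing barcodes (vertical axis) in each animal's fresh library (filled circle) and preserved library (open square), with exact 95% intervals and the number of members above each. The fresh libraries range from 0.0728% in PC1 to 0.671% in NC1, and the 1 preserved library with a member is at 0.0237%.

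The members were smaller barcodes than the rest. Median UMIs were 2656, 2733, 2837 and 2688 in fresh members, against 3690, 3885, 4444 and 4570.5 in the other passing barcodes of the same libraries. Thinned to 1000 UMIs, which left out 2 NC1 members and 90 to 190 others per library, they held about as many genes, at medians of 527 to 540 in members and 515 to 539 in others. Without thinning, median genes were 1017 to 1085 in members and 1328 to 1528 in others. The median mitochondrial share of members was lower in each fresh library, for example 4.46% against 5.64% in NC1. In all 8 libraries, 0 barcodes of 500 or more UMIs reached 3 rule UMIs while failing the limit of 20% mitochondrial UMIs. Below 500 UMIs, 6 barcodes reached 3 rule UMIs, with 2 in fresh NC1 and 1 in fresh PC2, and 1 in preserved NC2 and 2 in preserved PC2.

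Most fresh members held more rule UMIs than the threshold asked. These counts are the values that chose the members, so they are a description. Fresh members held 3 to 75 rule UMIs (median 25.5), and 45 of 58 held at least 10. All 3 rule genes were detected in 42. Just inside the threshold, with exactly 3 UMIs, were 4 barcodes of NC1 and 2 of NC2 among the fresh and 1 of PC2 among the preserved. Just outside it, with 2 UMIs, were 34, 11, 0 and 7 fresh barcodes and 1 of preserved PC1. At least 1 Hdc UMI also occurred in 5.63%, 2.97%, 0.753% and 2.22% of the other fresh barcodes. Fresh droplets under 100 UMIs, which hold mostly free RNA, had Hdc at 34.7, 16.3, 7.42 and 7.13 CPM (UMIs scaled to a fixed library total), and such droplets of preserved libraries at 1.32 to 10.2 CPM. The other passing barcodes had 1.37 to 12.5 CPM and the members 2854 to 7949 CPM. The part of free RNA in the low counts was not tested.

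Genes outside the rule were counted too. Of the 25 leading genes described next, 17 outside the rule were found in under 5% of the other fresh barcodes. They were chosen after their values were seen, as high in these members and rare in these others. The counts below follow in part from that choice and are a description, with no separate support for the members. At least 6 of the 17 were detected in 25 of 31 NC1 members, 12 of 16 NC2 members, 3 of 3 PC1 members and 8 of 8 PC2 members. The preserved PC2 member also held at least 6. Among non-members, 1 fresh NC1 barcode and 0 preserved barcodes reached that number. Members under 6 of these genes numbered 6 in NC1 and 4 in NC2.

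Members near the threshold, most of them larger than the median barcode, carried much of the NC sums. The 5 NC1 members with 3 or 4 rule UMIs held 53635 of 132447 NC1 member UMIs (40.5%, 3883 to 22399 each) and 0 of Ms4a2. They also held 230 UMIs of the plasmacytoid dendritic cell list and 183 of the monocyte list. The NK list had 99, the T cell list 48, the macrophage list 44 and the B cell list 37. The 3 such NC2 members, with 1010, 8835 and 6378 UMIs, held 31.5% of the NC2 member UMIs and 1 of Ms4a2. They held 94 UMIs of the monocyte, 51 of the NK, 40 of the macrophage and 35 of the plasmacytoid dendritic cell list. The T cell list had 7 and the B cell list 2. PC1 and PC2 had 0 such members. With at least 5 rule UMIs required, NC1 levels of the 25 leading genes were 1.64 to 1.68 times as high, for example 1117 CPM for Ms4a2 in place of 664, 723 for Gata2 in place of 430 and 685 for Csf1 in place of 408.

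The profile of the members was taken per animal as the log2 ratio of CPM in summed members over CPM in summed others of the same fresh library, with 10 CPM added to both. Means are over NC1, NC2 and PC2, which had at least 5 members (n = 3). Genes counted below as higher or lower in each animal are counted over these 3, without PC1. Since the rule fixes this contrast, all values are a description with no test. Of 1544 genes with enough UMIs and outside the rule, 52 (3.37%) were over 4-fold higher in members of each of the 3 animals and 0 (0%) over 4-fold lower. With at least 5 rule UMIs 61 were higher and 1 lower. The median log2 ratio of all of these genes was -0.14. A gene could pass through its level in members alone, so higher genes of a list are counted below over all its genes in the files. Among all 32751 such genes, expressed or not, 0.186% were over 4-fold higher in each animal and 2.29% higher. Lower genes are counted among the 1544 alone, where 32.8% were lower in each animal, since at this depth a rare gene can have 0 UMIs in members whatever its level.

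Among the chains of the receptor for immunoglobulin E, Fcer1a was used by the rule and Ms4a2 was not. Ms4a2, its beta chain, stood at 664, 970, 1286 and 1213 CPM in members, against 0.309 to 1.74 in the others (log2 ratio 6.38 ± 0.51, SD). All 4 member levels were far above those of the others, and 46 of 58 fresh members held a UMI against 0.482% of the others. Fcer1a, through its part in the rule, had a log2 ratio of 6.38 ± 0.74 and a UMI in 43 members. Fcer1g, the gamma chain shared with other Fc receptors, is used by myeloid and NK cells and had a ratio of 0.10 ± 0.12. The kinases Lyn and Syk, which act below the receptor, had ratios of -0.57 ± 1.19 and 0.41 ± 0.19. Of 19 receptor signalling genes outside the rule Ms4a2 was the 1 over 4-fold higher in each animal.

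Granule proteases were among the genes with most UMIs in members. Mcpt8l3 stood at 23511, 8515, 8884 and 6290 CPM in members, against 152, 362, 92.1 and 46.6 in the others (6.17 ± 1.44). Mcpt8l2 stood at 14013, 4616, 3156 and 3190 CPM in the members, against 15.2 to 94.9 in the others (6.83 ± 1.30). The NC1 levels of both were the highest of the 4 and rested largely on 1 member. That barcode held 2682 of 3769 fresh member UMIs of Mcpt8l3 (71.2%) and 1666 of 2192 of Mcpt8l2 (76.0%). It also held 85.9% of the member UMIs of Prg2, the eosinophil major basic protein, and 83.3% of those of the chymase Cma1. Without it, NC1 members had 3725 CPM of Mcpt8l3 and 1638 CPM of Mcpt8l2. The NC2 levels also rested largely on 1 member, with 281 of 439 Mcpt8l3 UMIs and 175 of 238 Mcpt8l2 UMIs of NC2 members.

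Single members differed widely in protease content. Mcpt8l2 and Mcpt8l3 together made up a median of 0.303% of a fresh member's UMIs, from 0% to 28.4%, and over 1% in 15 of 58 members. The protease-rich NC1 barcode held 16470 UMIs, 26.4% of them from this pair, with 37 rule UMIs, 25 Ms4a2 UMIs and 12 Cpa3 UMIs. An NC2 member with 1608 UMIs was at 28.4% with 6 rule UMIs. At the other end, 19 members held 0 or 1 Mcpt8l3 UMI. The preserved PC2 member held 5864 UMIs, with 119 of Mcpt8l3, 45 of Mcpt8l2 and 29 of Prss29 beside 2 UMIs of Hdc, 1 of Fcer1a and 0 of Dnase2b. It also held 50 UMIs of the NK list, where fresh members held 0 to 40 (median 6), and 9 of the cycling list.

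**Figure D2:**
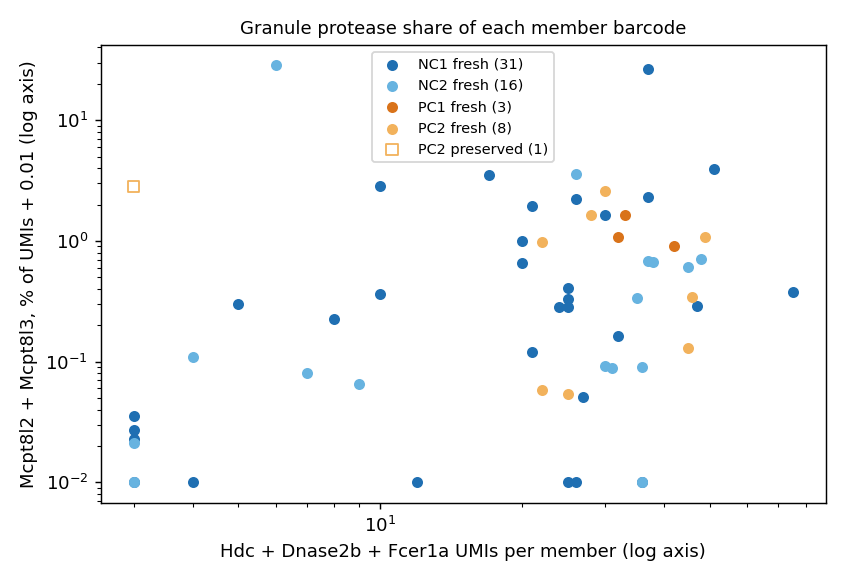
Each point is 1 member barcode, with its Hdc, Dnase2b and Fcer1a UMIs on the horizontal log axis and Mcpt8l2 plus Mcpt8l3 as a percentage of its UMIs, plus 0.01, on the vertical log axis. A barcode of NC1 (26.4%) and one of NC2 (28.4%) stand above all other members, and the preserved PC2 member (open square) sits at 3 rule UMIs and 2.80%.

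Prss29, a serine protease used as a marker of this population, differed widely between animals. NC1 members held 307 UMIs in 23 of 31 barcodes (2318 CPM, Poisson interval 2066 to 2592), and PC2 members 75 UMIs in 7 of 8 (3370 CPM, 2650 to 4224). NC2 members held 3 UMIs in 2 of 16 (58.2 CPM, 12.0 to 170), and PC1 members 0 UMIs in 3 barcodes, which allows up to 351 CPM. The animals with most Prss29, NC1 and PC2, were 1 of each diet, and their Poisson intervals did not overlap that of NC2. The others of the same libraries had 10.3, 0.101, 0.0883 and 3.15 CPM, and droplets under 100 UMIs 16.4, 3.01, 2.97 and 4.46 CPM. The part of free RNA in the levels of the others was not tested. These values are 1 library per animal, and the intervals cover counting error only. Without the protease-rich barcode NC1 members had 1216 CPM.

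**Figure D3:**
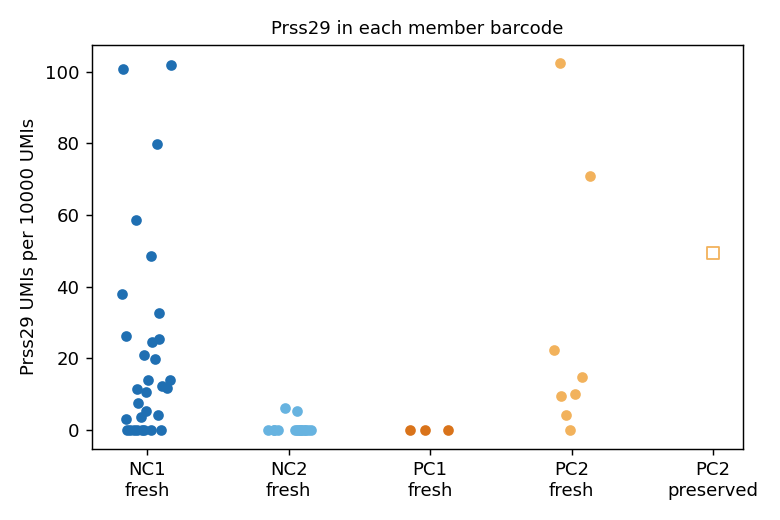
Prss29 UMIs per 10000 UMIs of the barcode (vertical axis) in each member barcode, by library (horizontal axis, points spread sideways for sight). Members of NC1 and PC2 spread upward, 2 of 16 NC2 members and 0 of 3 PC1 members hold a UMI, and the preserved PC2 member is the open square.

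Several genes for lipid mediators stood higher in members. Alox5, which starts leukotriene synthesis, had 242, 233, 584 and 809 CPM in members against 0.905 to 8.66 in the others (4.86 ± 0.68). Alox15, a lipoxygenase, had 5.63 ± 0.45, Alox5ap, the activating partner of Alox5, 2.71 ± 0.72, and Cyp4f18, a cytochrome P450, 5.09 ± 0.71. The cyclooxygenases Ptgs1 (2.63 ± 0.42) and Ptgs2 (3.85 ± 1.41) were also higher, with Ptgs2 in 22 members. Ltc4s, the leukotriene C4 synthase, had 2 UMIs in 2 members and Hpgds, which makes prostaglandin D2, 9 UMIs in 8. Pla2g4a, which frees arachidonic acid, had 2. Of 12 mediator genes outside the rule, Alox5, Ptgs1 and Ptgs2 were over 4-fold higher in each animal. In PC2, Ptgs2 was at 44.9 CPM, below the 135 CPM that a count of 0 allows there. Of the histamine genes Hdc was used by the rule. Srgn, the proteoglycan core of granules, had 2.25 ± 0.22.

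Among transcription factors, Gata2, a regulator of basophil and mast cell development, led with 430, 427, 701 and 854 CPM in members against 0.553 to 1.70 in the others (5.61 ± 0.64). It was detected in 43 members. Gata1 was found in 10 members with 11 UMIs (2.52 ± 1.20), Cebpa in 11 with 18 UMIs and Nfe2 in 18 (1.80 ± 0.70). Mitf, a mast cell regulator, had 2 UMIs, and Ikzf1 and Runx3 had 0. Of 26 transcription factor genes, Gata2 was the 1 over 4-fold higher in each animal, and 3 of the 6 with enough UMIs were lower, among them Id2 (-1.61 ± 0.42).

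Promoters of the leading genes were searched for the letters AGATAA or TGATAA on both strands, the core of GATA-type motifs. Of the 25 leading genes 14 had a RefSeq promoter, and 3 of these genes held a match in any promoter (Dnase2b, Fcer1a and Cyp4f18). Among 33469 single promoters, 18.9% held a match. Prss29, Cyp4f18 and Adgrg3 had more than a single promoter, so the gene count and this share are in different units. A match is a description of letters in this window only.

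Of 25 cytokine and chemoattractant receptor genes, 5 were higher in each animal, with Il3ra the 1 over 4-fold higher, and 1 of the 6 with enough UMIs was lower. Il3ra, the interleukin 3 receptor alpha chain, was in 43 members (3.53 ± 0.78), Enpp3, a surface enzyme used as a basophil marker, in 36 (4.84 ± 0.97), and Cd63, a granule membrane protein, in 51 (4.32 ± 1.24). The chemoattractant receptors C5ar1 (2.27 ± 0.64) and Cxcr4 (2.26 ± 1.18) were among the 5. Csf2rb, the signalling chain that pairs with Il3ra, had 3 UMIs and Il1rl1, the interleukin 33 receptor, 5. Cd7 was among the genes with most UMIs, at 3820 to 11861 CPM against 446 to 1036 in the others (2.97 ± 1.51).

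Of the cytokine genes, Csf1, a macrophage growth factor, had 408, 407, 468 and 494 CPM in members against 3.36 to 5.82 in the others (4.86 ± 0.12). The member levels were far above those of the others. Il4 was found in 12 of 58 members (3.16 ± 0.83), in each of the 4 libraries, with 25 UMIs, and Il13 had 0. Of the Il4 UMIs, 1 NC1 barcode held 9 (36%), 1 PC2 member held all 4 of PC2, and PC1 had 1. The chemokine Ccl3 was in 49 members (3.09 ± 0.61) and Ccl4 in 26 (0.61 ± 1.47). Of 22 cytokine and chemokine genes, Csf1, Il4 and Ccl3 were over 4-fold higher in each of NC1, NC2 and PC2. In PC1, Csf1 and Il4 were too, and Ccl3 had a log2 ratio of 1.03.

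The inflammatory transcripts Il6, Osm and Cxcl2 were named after their values were seen. Il6 had 34 UMIs in NC1 and 5 in NC2 members and 0 in PC1 and PC2. Osm had 26, 7, 0 and 0 UMIs and Cxcl2 21, 13, 0 and 0. With 8555 UMIs in all PC1 members and 22258 in all PC2 members, a count of 0 allows up to 351 and 135 CPM. The PC1 limit lay above every NC level of the 3 genes under the main rule, so no difference from PC1 was detectable at this depth. With at least 5 rule UMIs, Il6 in NC1 was at 431 CPM, above that limit. Osm in NC1 (292 CPM) and Il6 in NC2 (142 CPM) stayed below it. The NC1 levels of Il6 (257 CPM), Osm (196 CPM) and Cxcl2 (159 CPM) lay above the PC2 limit. In NC2, Cxcl2 (252 CPM) lay above it and Osm (136 CPM) just above it. Il6 in NC2 (97.0 CPM) lay below it, and above it with at least 5 rule UMIs (142 CPM). The other fresh barcodes had Cxcl2 at 64.1, 27.7, 6.80 and 6.25 CPM, Il6 at 1.32, 0.251, 0.221 and 0.0425 CPM, and Osm at 20.5, 6.69, 6.27 and 10.2 CPM. Outside the members, Cxcl2 was thus higher in both NC animals than in both PC animals. Il6 in these others was nearly level in NC2 and PC1, and Osm in PC2 lay above NC2. No difference between diets was tested. Il6 came from 7 members and Cxcl2 from 4. Cxcl2 rested on the members near the threshold: with at least 5 rule UMIs it was at 12.7 CPM in NC1 and 0 in NC2, and its log2 ratio went from 1.09 to -1.44. Immediate early and stress genes summed to 5330 CPM in NC1 and 4054 in NC2 members against 2272 and 1688 in the others, and to 2572 in PC1 and 2291 in PC2 members against 2262 and 2311. Their part in the values above was not tested.

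**Figure D4:**
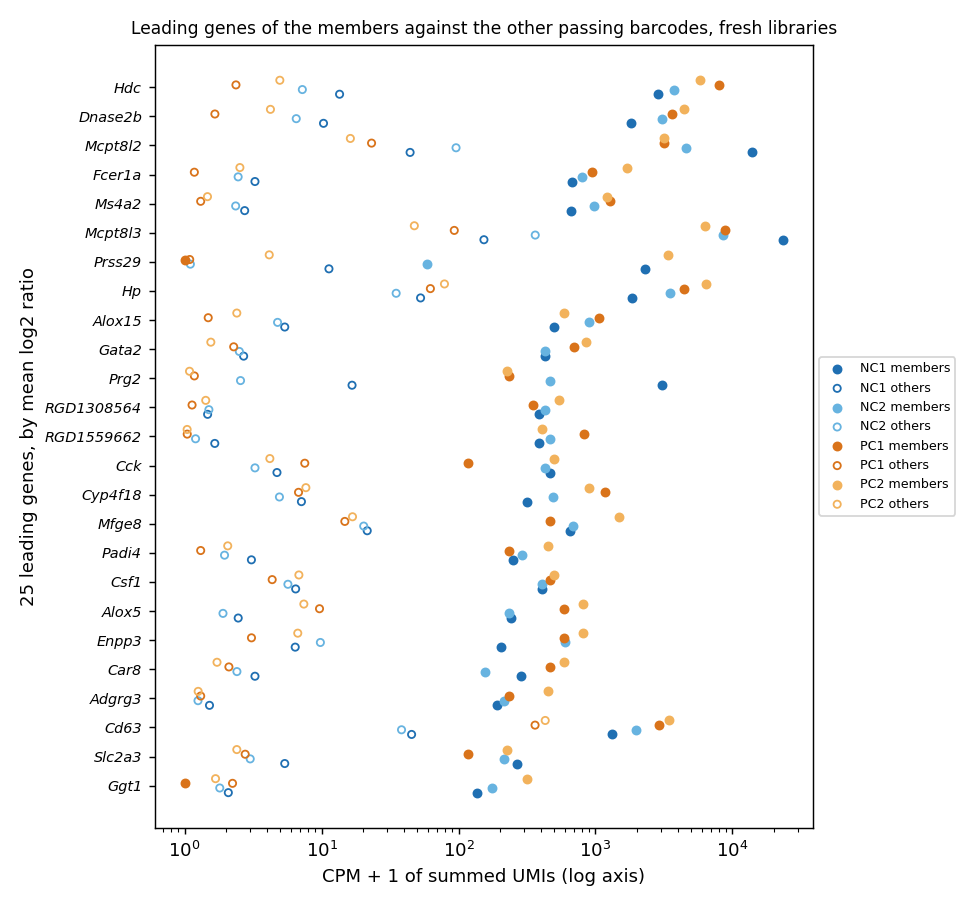
The 25 leading genes (vertical axis), with CPM plus 1 on a log axis, in summed members (filled) and summed other passing barcodes (open) of each fresh library, coloured by animal. Of the 22 genes outside the rule, 20 have all 4 member levels above all 4 levels of the others (Hdc, Dnase2b and Fcer1a chose the members); PC1 members had 0 UMIs of Prss29 and Ggt1.

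The label basophil or mast-like was checked against lists of marker genes. Of 27 basophil genes 23 were in the files. Of these, 8 were over 4-fold higher in each of NC1, NC2 and PC2 (Mcpt8l2, Mcpt8l3, Prss29, Prss34, Il3ra, Il4, Ccl3 and Csf1), and 2 of the 13 with enough UMIs were lower. These were Lilrb4 (-1.66 ± 2.56) and Ifitm1 (-0.28 ± 0.30), while Il13, Itga2, Cd200r1l, Ptgdr2 and Cyp11a1 had 0 UMIs. Prss34, a basophil protease, had 13 UMIs in 3 members, 8 of them in the protease-rich barcode, and passed in PC2 on 1 UMI. In PC1, Prss29 and Prss34 had 0 UMIs and Ccl3 a log2 ratio of 1.03. Mcpt8l2, Mcpt8l3, Il3ra, Il4 (on 1 UMI) and Csf1 were over 4-fold higher there too. Mcpt8l2 and Mcpt8l3 also occurred in barcodes with mast cell transcripts outside the rule, described below, so their presence does not set basophils apart here. Of 14 genes shared by both cell types, 6 were over 4-fold higher (Ms4a2, Gata2, Alox5, Cd63, Cpa3 and Cd9). Cpa3, carboxypeptidase A3, was found in 14 members with 38 UMIs, 2 of them in NC2.

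Of 25 mast cell genes 21 were in the files, and 12 of these had 0 UMIs in members, as had 74.3% of all genes in the files. Kit, the tryptases Tpsab1 and Tpsb2, the chymase Mcpt1 and the serotonin enzyme Tph1 had 0 UMIs among 214817 in fresh members, a depth at which a gene at the 3.70 CPM of Kit in the others can give 0 UMIs. Cma1 had 60 UMIs in 8 members, 50 of them in the protease-rich barcode. Mcpt1l4 was the 1 mast list gene over 4-fold higher in each animal (4.09 ± 1.53), with 47 members holding a UMI. The protease-rich barcode held 47.1% of its UMIs, and without it NC1 members had 1699 CPM in place of 4711. It was also the most abundant gene of that list, which summed to 3452 to 5187 CPM in members and 116 to 610 in the others.

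**Figure D5:**
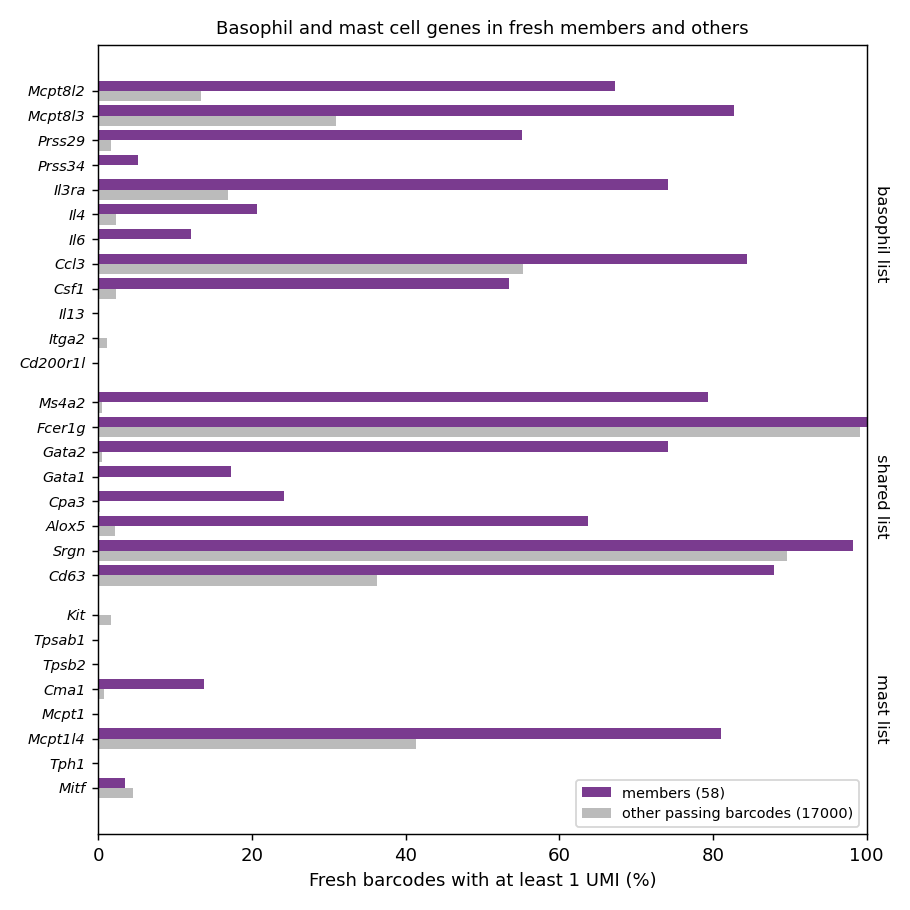
Percentage of fresh barcodes with at least 1 UMI (horizontal axis) for genes of the basophil, shared and mast cell lists (vertical axis), in 58 members (purple) and 17000 other passing barcodes (grey). Ms4a2 and Gata2 are detected in 46 and 43 members. Of the mast list, Mcpt1l4 is detected in 47 members and Cma1 in 8. Kit, Tpsab1, Tpsb2 and Mcpt1 are at 0 in members and at 0 to 1.69% in the others. Il13, Itga2 and Cd200r1l of the basophil list are also at 0 in members.

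Prg2 and Alox15 also belong to an eosinophil list, both with log2 ratios above 5, but Epx had 1 UMI, Ccr3 2 and Il5ra, Prg3 and Ear1 had 0. Markers of other cell types were then counted. Of the genes with enough UMIs, 5 of 5 NK genes, 3 of 4 T cell genes, 3 of 4 plasmacytoid dendritic cell genes, 1 of 1 B cell gene, 2 of 3 neutrophil genes, 1 of 4 macrophage genes and 0 of 3 monocyte genes were lower in all 3 animals. The monocyte genes moved with the members near the threshold. With at least 5 rule UMIs Fn1 went from 0.45 to -2.28 ± 0.18. S100a4 went from -0.58 to -1.11 ± 0.20 and Fcnb from -0.54 to -0.88 ± 0.25. The neutrophil genes S100a8 (-1.49 ± 1.18) and S100a9 (-2.44 ± 0.58) were lower in all 3 animals. Retnlg of the neutrophil list, with 27 UMIs in 14 members, was over 4-fold higher in each. The summed NK list stood at 1956, 3006, 2688 and 2561 CPM in members and at 3608 to 6396 in the others, with Nkg7 and Gzma giving most UMIs.

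Transcripts of those classes still occurred in most members. Of 58 fresh members 52 held at least 3 UMIs of a T, NK, B, plasmacytoid dendritic or macrophage list, 48 of them of the NK list. No doublet caller was run, and the part of doublets and of free RNA in these counts was not tested. The 10 lowest ratios among genes at 100 CPM or more in the others ran from -3.09 to -2.12 and included Dbi (-3.09 ± 1.70), Rgs3 (-2.49 ± 1.47), S100a9, the T cell kinase Lck (-2.43 ± 1.92) and Cd79b of B cells (-2.12 ± 2.06), with spreads set by a few UMIs.

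The genes with most UMIs in the members, leaving out ribosomal and mitochondrial symbols, were led by Tmsb4x, an actin-binding peptide (0.91 ± 0.20), with Fth1, B2m, Tyrobp, Lyz2, Tmsb10 and Pfn1 also on the list at ratios between -0.54 and 0.62. Lyz2, a lysozyme gene of myeloid cells, went from -0.54 to -1.44 with at least 5 rule UMIs, and from 7274 to 1726 CPM in NC2 members. Beside the proteases and Cd7, the membrane protein gene Itm2b was on this list, at 3790, 4228, 3857 and 4987 CPM in members and 916 to 1251 in the others. Further leading genes were Hp, haptoglobin (5.80 ± 0.78), in 53 members, RGD1308564 (5.44 ± 0.25), RGD1559662 (5.37 ± 0.17), Cck, a peptide hormone (5.18 ± 0.07), Mfge8, a secreted bridging protein (4.95 ± 0.79), Padi4, an arginine deiminase (4.86 ± 0.48), Car8 (4.75 ± 0.98), Adgrg3 (4.72 ± 0.67), Slc2a3, a glucose transporter (4.28 ± 0.08), and Ggt1 (4.25 ± 0.62). RGD1559662 was found in 20 members, and 41.8% of its UMIs came from 1 of them.

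Fresh barcodes of other classes were set beside the members to show which leading genes they also carried. A class held barcodes with at least 3 UMIs of its marker list and at least 2 times those of the next list. NK barcodes had Mcpt8l3 at 411 ± 301 CPM (SD over 4 animals, 127 to 833), against 6290 to 23511 in members, and Mcpt1l4 at 641 ± 444 against 3963 ± 678, both lower than in members in 4 of 4 animals. Ccl4 was at 1044 ± 277 CPM in NK barcodes and 687 ± 411 in members, with members higher in 1 of 4 animals. Cd63 was at 1384 ± 1007 CPM in macrophage barcodes (381 to 2357) and 2407 ± 942 in members (1314 to 3415). The ranges overlap, while within animals members were higher in 4 of 4. Plasmacytoid dendritic barcodes had Il3ra at 61.8 ± 3.81 CPM against 647 ± 231 in members, and monocyte barcodes Hp at 208 ± 32.0 against 4043 ± 1918. Ms4a2 and Gata2 were each below 4 CPM in every animal in all 6 classes, against at least 664 and 427 in members.

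Genes of the lists were then tested for a change with preservation over all passing barcodes, members or not. UMIs were summed per library and compared by edgeR's quasi-likelihood test with animal as a block and Benjamini-Hochberg adjustment, and the rule genes were left out. Of 11472 genes, 497 (4.33%) had a lower and 553 (4.82%) a higher level after preservation at an adjusted p under 0.05. Of 36 testable genes of the basophil, mast and shared lists, 1 was lower (2.78%) and 3 were higher (8.33%), with a median log2 fold change of -0.14 against -0.0019 for all genes. Of 17 leading genes that could be tested, 3 were lower and 0 higher, and they were chosen in the fresh libraries of this same comparison. Without a filter on low counts, 6 of 54 list genes were higher and 9 lower, and 13 of 22 leading genes were lower. Of all 18060 genes, 723 were then higher and 826 lower. In these sums fewer cells of a type and less RNA per cell cannot be told apart.

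Alox5 was the list gene that fell, from 2.84 to 1.40 CPM in NC1, 1.48 to 0.570 in NC2, 8.74 to 5.91 in PC1 and 7.10 to 4.84 in PC2. It was lower in 4 of 4 animals (log2 fold change -0.74, SE 0.18, edgeR adjusted p = 0.0337). With the members removed from the sums the change was -0.40 (SE 0.18, edgeR adjusted p = 0.177), which no longer passed. The leading genes Padi4 (-1.20, SE 0.27, edgeR adjusted p = 0.0273) and Cyp4f18 (-0.59, SE 0.15, edgeR adjusted p = 0.0355) also fell in 4 of 4 animals. With the members removed they had -0.54 (edgeR adjusted p = 0.303) and -0.34 (edgeR adjusted p = 0.166). Alox5, Padi4 and Cyp4f18 are all leading genes, chosen for their level in fresh members. The test therefore cannot decide on a fall, and the values of all 3 are a description. None of the 3 falls passed without NC2, PC1 or PC2. The other list genes with a called change were chemokines and a cytokine. Ccl3 rose from 183 to 333 CPM in fresh to 695 to 1252 CPM in preserved libraries (1.85, SE 0.18, edgeR adjusted p = 0.00113), Ccl4 from 357 to 542 to 398 to 1059 CPM (0.74, SE 0.17, edgeR adjusted p = 0.0314) and Osm, an interleukin 6 family cytokine, from 6.18 to 20.9 to 9.72 to 28.0 CPM (0.59, SE 0.09, edgeR adjusted p = 0.00575). Each was higher in 4 of 4 animals, and all 3 passed with the members removed too. Ccl4 did not pass without NC2, PC1 or PC2.

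The receptor chain Ms4a2 had 125, 77, 18 and 38 UMIs in the fresh and 0, 1, 17 and 8 in the preserved libraries. The NC libraries had almost none after preservation, while PC1 had as many as before (log2 fold change -2.82, SE 0.79, edgeR adjusted p = 0.0531). Gata2 had 93 and 0, 52 and 16, 35 and 23, and 32 and 9 UMIs in fresh and preserved libraries (-1.84, SE 0.60, edgeR adjusted p = 0.0828). Mcpt8l3 had 287, 378, 94.0 and 51.9 CPM fresh and 23.7, 136, 78.6 and 55.3 CPM preserved (-1.23, SE 0.48, edgeR adjusted p = 0.135). Il4 had -0.91 (SE 0.26, edgeR adjusted p = 0.0580), with NK barcodes among its carriers at 12.6 ± 9.86 CPM. None of these 4 passed the threshold, while without PC1 Ms4a2 did (edgeR adjusted p = 0.0253) and without PC2 Il4 did (edgeR adjusted p = 0.0191). Ms4a2, Gata2 and Mcpt8l3 are leading genes as well, so their values too are a description.

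Preserved libraries held barcodes with mast cell transcripts outside the rule, which were looked for after the values were seen. A barcode was counted with at least 20 UMIs of Cma1, Cpa3, Tpsab1, Tpsb2, Mcpt1 and Kit together. Preserved PC1 had 2 and preserved PC2 1 with Cma1 and Mcpt1 together. The PC1 pair held 166 and 221 UMIs of Cma1, 53 and 34 of Mcpt1, 15 and 25 of Cpa3 and 3 and 1 of Kit, with 7 and 4 of Ms4a2, 3 and 10 of Gata2, 145 and 105 of Mcpt8l3, and 1 and 2 rule UMIs. In these 2 barcodes Mcpt8l2 and Mcpt8l3 together made up 2.98% and 4.70% of UMIs. The median in fresh members was 0.303% (0% to 28.4%). The PC2 barcode held 199 of Cma1, 35 of Mcpt1, 2 of Cpa3, 5 each of Ms4a2 and Gata2 and 26 of Mcpt8l3, with 0 rule UMIs. Prss29, Tpsab1 and Tpsb2 were at 0 in all 3. Among fresh barcodes 0 held Mcpt1 beside 20 such UMIs. A further fresh PC2 and preserved NC2 barcode held 66 and 88 UMIs of Cma1 with 0 of Cpa3, Mcpt1 and Ms4a2. These 3 barcodes held 7, 4 and 5 of the 17 and 8 Ms4a2 UMIs of the preserved PC1 and PC2 libraries.

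Of the passing barcode sequences, 581 of 31584 occurred in more than 1 library, and 1 of 59 members had such a sequence.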

How the data were processed

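Rat liver immune cells were profiled with the 10x Chromium 3′ v2 kit, 1 fresh and 1 DMSO cryopreserved library from each of 4 animals. The deposited files hold raw UMI counts per gene and barcode, unfiltered. The authors made them with Cell Ranger 2.1.1, which aligns with STAR. The paper names bcl2fastq 2.17.1.14 for its Drop-seq libraries, which were not used here. The members and lists were chosen with earlier results of these data known. Barcodes with at least 500 UMIs and under 20% of UMIs from 13 Mt- genes were kept, and no doublet caller was run. Counts of 32754 gene identifiers were summed per library and divided to CPM, with a pseudocount of 10 CPM for ratios. A gene was measured with at least 20 UMIs in fresh members or 100 CPM in the others. Named were the 25 leading genes higher in every animal with at least 5 members, the 10 lowest, the 15 with most UMIs and genes of the marker lists. Lists covered basophil, mast, shared, IgE receptor signalling, mediator, cytokine, receptor and transcription factor genes and markers of other classes. Higher in all 3 animals were 0 of 8 dendritic cell genes, 1 of 6 platelet or erythroid, 1 of 9 hepatocyte and stromal, 0 of 7 cycling and 3 of 19 immediate early genes.

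Fresh and preserved libraries were compared with edgeR 4.0.16 in R 4.3.3 (TMM, filterByExpr, animal as block), with DESeq2 1.42.0 as an alternative. Animals pair the libraries: the deviations of an animal's 2 libraries from their group means correlated at 0.519 to 0.668. Counts were simulated for this comparison (11363 genes) from a shared mean profile, with equal dispersion for all genes and no differences between animals. On these the test found 182 of 200 changed genes and 98 of 100 with 4-fold changes, with 3 false calls. The real libraries differed between animals, so these rates do not carry over to them. Replicates are animals, 2 per diet. Shares carry exact binomial (Clopper-Pearson) intervals, and a count of 0 a limit of 3 counts. Promoters came from RefSeq (GRCr8) by symbol, and no promoter of Ms4a2 was used here.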

Additional observations from a re-analysis of the deposited data

Results flagged for a closer look

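Among 57 sets of 4 libraries checked for a library far from the rest, 4 were marked, and chance marks about 1 in 20. The share in preserved PC2 (0.0237%) stood apart because the other 3 preserved libraries had 0 members. NC1 members stood apart from the other 3 fresh libraries in Mcpt8l2 (14013 CPM), Mcpt8l3 (23511 CPM) and Prg2 (3080 CPM), and a single barcode held 76.0%, 71.2% and 85.9% of the fresh member UMIs of these genes.

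Mcpt8l2 over all passing barcodes was lower after preservation in both NC animals and higher in both PC animals. The NC mean minus the PC mean of the log2 change (1 CPM added) was -3.64, and this difference between diets was not tested. The signs were opposite in 1 of 13 genes compared, while the change was lower in both NC than in both PC animals in 9 of the 13. The protease-rich NC1 barcode held 1666 of the 2775 Mcpt8l2 UMIs of fresh NC1. The preserved PC1 barcodes with mast cell transcripts held 158 and 245 of the 1011 Mcpt8l2 UMIs of that library.

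Barcodes outside the rule with at least 20 mast cell UMIs numbered 1 in preserved and 0 in fresh NC2, and 2 in preserved and 0 in fresh PC1. PC2 had 1 in each and NC1 0 in each. The NC2 barcode held Cma1 alone of these genes, and no test was made on such counts.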

How the results depend on the processing

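The fresh minus preserved share (0.325 percentage points) ranged from 0.209 to 0.409 when 1 animal was left out, and the NC minus PC share (0.398) from 0.256 to 0.540. With 2 rule UMIs the values were 0.611 and 0.815. Without members holding 3 UMIs of another class list, which leaves 6 fresh members, they were 0.0325 and 0.0650. The direction of both means held in every alternative run for them, but in the last one it rests on NC1 alone (0.130% fresh), since the other 3 animals then have 0 members fresh and preserved. With at least 6 of the 17 other marker genes in place of the rule, 49 fresh and 1 preserved barcodes counted. That alternative was added after the data were seen and uses genes chosen from the fresh members. The 52 genes over 4-fold higher became 16 with a pseudocount of 100 CPM and 34 (with 334 over 4-fold lower in place of 0) without members holding other class UMIs, which left 1 animal and turned RGD1559662 to -0.092 and Cd200r1 to -1.30, and 54 to 64 with 1 animal left out. TMM scaling moved the median of all genes from -0.14 to -0.48 and left 49 such genes. The preservation test called 1050 genes with the replicate block and 15 without it (10 higher, 5 lower, 1 list gene). Leaving out 1 animal gave 223 (without NC2) to 1296 (without NC1) calls, 126 to 496 higher, 97 to 800 lower and 2 to 8 of the list genes. DESeq2 called 770. Without a filter on low counts 723 genes were higher and 826 lower, and 15 list genes were called, 6 higher and 9 lower. Alox5 was not called without NC2, PC1 or PC2, nor without the block. Ccl4 was not called by DESeq2, without NC2, PC1 or PC2, or without the block, and Osm not without the block. Padi4 and Cyp4f18 were not called by DESeq2, without NC2, PC1 or PC2, without the block or without the members. Without a filter Ms4a2, Gata2, Il4 and Mcpt8l3 were called (edgeR adjusted p = 0.00073 to 0.0069), and Il4 also by DESeq2 (adjusted p = 0.0491) and with 10 counts in every library (edgeR adjusted p = 0.0496). The profile rests on few members, 8 in PC2, and PC1 with 3 is not in its means. The causes of these shifts were not tested.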
